A study of Mus musculus with 39 samples.

Results

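The guanylate-binding proteins and the immunity-related GTPases are interferon-induced GTPases that defend cells against microbes living inside them, and 10 of their genes are described here: Gbp2, Gbp3, Gbp4, Gbp5, Gbp6 and Gbp7 of the first family, and Igtp (also called Irgm3), Irgm1, Irgm2 and Iigp1 (Irga6) of the second. They were taken by symbol, and all 10 were found in the table of 24537 genes for kidney, liver and lung and in the table of 52508 genes for skin. They were selected on measured values, the log2 fold changes of these genes between ABT-737 and vehicle, so all values in that contrast describe the choice and are no test of it. How many members passed the threshold there is printed beside the share of all genes that did, and nothing is read from either.

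RNA came from the whole kidney, liver, lung and skin of C57BL/6 male mice that all lacked perforin (Prf1-/-), the pore-forming protein through which cytotoxic lymphocytes kill, and no wild-type mice were included against which the deletion could be checked. Young mice were 3 months old and untreated, whereas old mice were 20 months old and had received ABT-737 or its DMSO-based vehicle from the age of 18 months. ABT-737, which inhibits anti-apoptotic members of the BCL-2 family, was injected intraperitoneally at 25 mg/kg on 2 consecutive days in each of 2 months. Each tissue had 4 young mice (skin had 3), 3 vehicle-treated and 3 ABT-737-treated mice, giving 39 libraries, and treated mice carried the replicate numbers 3, 4 and 5 in both groups. The treatment labels of ABT-737 replicates 4 and 5 read ABT-738 and ABT-739, and their titles place them in the ABT-737 group.

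Both families are switched on mainly by interferon gamma, which T cells and natural killer cells secrete. Its signal reaches target genes through DNA motifs called gamma-activated sites (GAS) and through interferon-stimulated response elements (ISRE), which the induced transcription factor IRF1 binds. Guanylate-binding proteins coat the vacuoles or the surface of intracellular bacteria and parasites and help to set off inflammasomes. Among the immunity-related GTPases, Iigp1 is an effector that attacks the parasite vacuole, and Irgm1, Irgm2 and Igtp are regulators that hold the effectors inactive on the membranes of the host.

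Gbp2 (chr3:142620663-142638008), Gbp3 (chr3:142560496-142573212), Gbp5 (chr3:142496934-142522344) and Gbp7 (chr3:142530336-142550151) lie in 1 cluster on the plus strand of mm10, and Gbp4 (chr5:105115767-105139586) and Gbp6 (chr5:105270702-105293699) lie in another on the minus strand. Igtp (chr11:58199556-58207592) and Irgm2 (chr11:58214977-58222783) are neighbours on the plus strand, and Irgm1 (chr11:48865249-48871346) lies on the minus strand of the same chromosome. RefSeq promoter sequence on GRCm38.p6 was searched for 7 of the 10 genes, not for Gbp4, Gbp6 or Iigp1. Windows on the chromosome of Iigp1 were left out of the search. The stretches that hold the matches to the interferon-responsive motifs are shown because these motifs are the sites through which interferon signalling is known to reach such genes. Each stretch ends at the base before a RefSeq start site. For Gbp3 and Irgm1 that site is not the start of the transcript whose interval is given above. Capitals mark GAS (TTCNNNGAA, a palindrome, so both strands read alike) or ISRE (the letters GAAA, any 2 bases, then GAAA again, read on either strand, so that on the other strand both GAAA read as TTTC). The intervals are chr3:142620553-142620662 (plus strand) for Gbp2, chr3:142559934-142560043 (plus) for Gbp3, chr3:142496684-142496933 (plus) for Gbp5, chr3:142530226-142530335 (plus) for Gbp7, chr11:58199446-58199555 (plus) for Igtp, chr11:48871421-48871530 (minus) for Irgm1 and chr11:58214867-58214976 (plus) for Irgm2.
Gbp2: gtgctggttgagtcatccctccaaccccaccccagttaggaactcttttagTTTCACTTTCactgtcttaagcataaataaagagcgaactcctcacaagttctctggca
Gbp3: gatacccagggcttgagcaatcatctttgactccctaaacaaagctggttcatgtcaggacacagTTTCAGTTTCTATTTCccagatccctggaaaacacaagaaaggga
Gbp5: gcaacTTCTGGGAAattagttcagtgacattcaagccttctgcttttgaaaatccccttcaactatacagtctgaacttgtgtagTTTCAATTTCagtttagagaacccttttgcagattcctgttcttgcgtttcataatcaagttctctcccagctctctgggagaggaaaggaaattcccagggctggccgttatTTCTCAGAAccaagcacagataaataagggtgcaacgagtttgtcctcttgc
Gbp7: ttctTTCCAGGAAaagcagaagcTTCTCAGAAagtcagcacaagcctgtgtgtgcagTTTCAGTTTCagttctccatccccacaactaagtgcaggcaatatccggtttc
Igtp: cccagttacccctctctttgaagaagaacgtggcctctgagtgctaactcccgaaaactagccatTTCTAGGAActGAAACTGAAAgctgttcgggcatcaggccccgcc
Irgm1: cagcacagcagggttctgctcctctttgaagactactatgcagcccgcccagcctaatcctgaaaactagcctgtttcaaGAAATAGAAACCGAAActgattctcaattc
Irgm2: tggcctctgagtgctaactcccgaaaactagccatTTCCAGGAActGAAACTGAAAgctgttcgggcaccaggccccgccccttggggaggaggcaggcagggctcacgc

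All 7 genes searched held an ISRE match between 250 bases before and 50 after a start site, as did 3.44% of 32851 RefSeq promoter windows of the same length. Nothing is known here of the motifs of Gbp4, Gbp6 and Iigp1. A GAS match was present in 4 of them (Gbp5, Gbp7, Igtp and Irgm2), against 8.3% of all windows, and 0.454% of all windows held both motifs. In Gbp3 and Irgm1, 2 ISRE matches overlapped each other, and Gbp3 had a further window, at another start site, with neither motif. The GAS match began 45 bases before the start of Igtp and 75 before that of Irgm2, and with this offset 184 of 270 aligned bases of the windows were identical. Their longest unbroken identical run, of 61 bases, began 11 bases before the start of Igtp and 41 before that of Irgm2, after both motifs. These matches describe the letters of the window and were not tested as binding sites.

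Kidney libraries held 1431814 to 3513311 counts, lung libraries 1046508 to 2600092 and skin libraries 1493411 to 3842808, whereas liver libraries held 223957 to 891116, and vehicle liver replicate 3 was the shallowest of all libraries. Levels below are CPM, counts scaled to a common library total with TMM factors, and were compared only for the same gene within a tissue, since reads come from the 3′ end and the skin table uses other transcript ends. A gene was called when edgeR's quasi-likelihood test gave an adjusted p under 0.05 over all genes tested in the tissue. Shares of all genes are over those tested in the tissue, also beside counts of all 10 members that include members not tested. All 10 members had enough counts to be tested in lung, 9 in kidney, 7 in skin and 5 in liver. Gbp5 in kidney, Gbp6 in lung and Iigp1 in skin passed the expression filter with no young library at its cutoff, so they are left out of the counts of members called against young mice. Gbp6 counts are uncertain, because 77.8% of the 50-base windows at the 3′ end of a matched transcript (all of them in the skin transcript) also occur in Gm43302, Gbp10 or other genes. The matched transcript has 2604 bases, and the one counted in kidney, liver and lung has 4303. For those tissues the 3′ ends of Gbp2, Gbp4, Gbp7, Igtp and Irgm1 were not checked. Gbp4 overlaps Gbp8 and Gbp9 on the same strand, and the Igtp transcripts overlap an annotated Irgm2 transcript.

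Most members had their highest levels in old mice given vehicle, in all 4 tissues, with Irgm1 and Iigp1 in liver and Gbp6 in lung as the exceptions among the genes tested. Young mice received no injections, so in vehicle minus young, written below as a change with age, age and the vehicle cannot be told apart. These are whole tissues, in which fewer cells that express a gene and less RNA per cell cannot be told apart either. Over all 10 genes, the summed level in kidney was 119 to 161 CPM in the 4 young mice, 1355, 378 and 480 CPM in vehicle replicates 3, 4 and 5, and 150, 187 and 235 CPM in the ABT-737 replicates of the same numbers. In skin the sum was 59.2 to 60.1 CPM in young mice, 310, 130 and 311 CPM with vehicle, and 103, 52.4 and 99.3 CPM with ABT-737. The 3 young skins were thus nearly alike, and 1 ABT-737-treated skin lay below them.

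**Figure D1:**
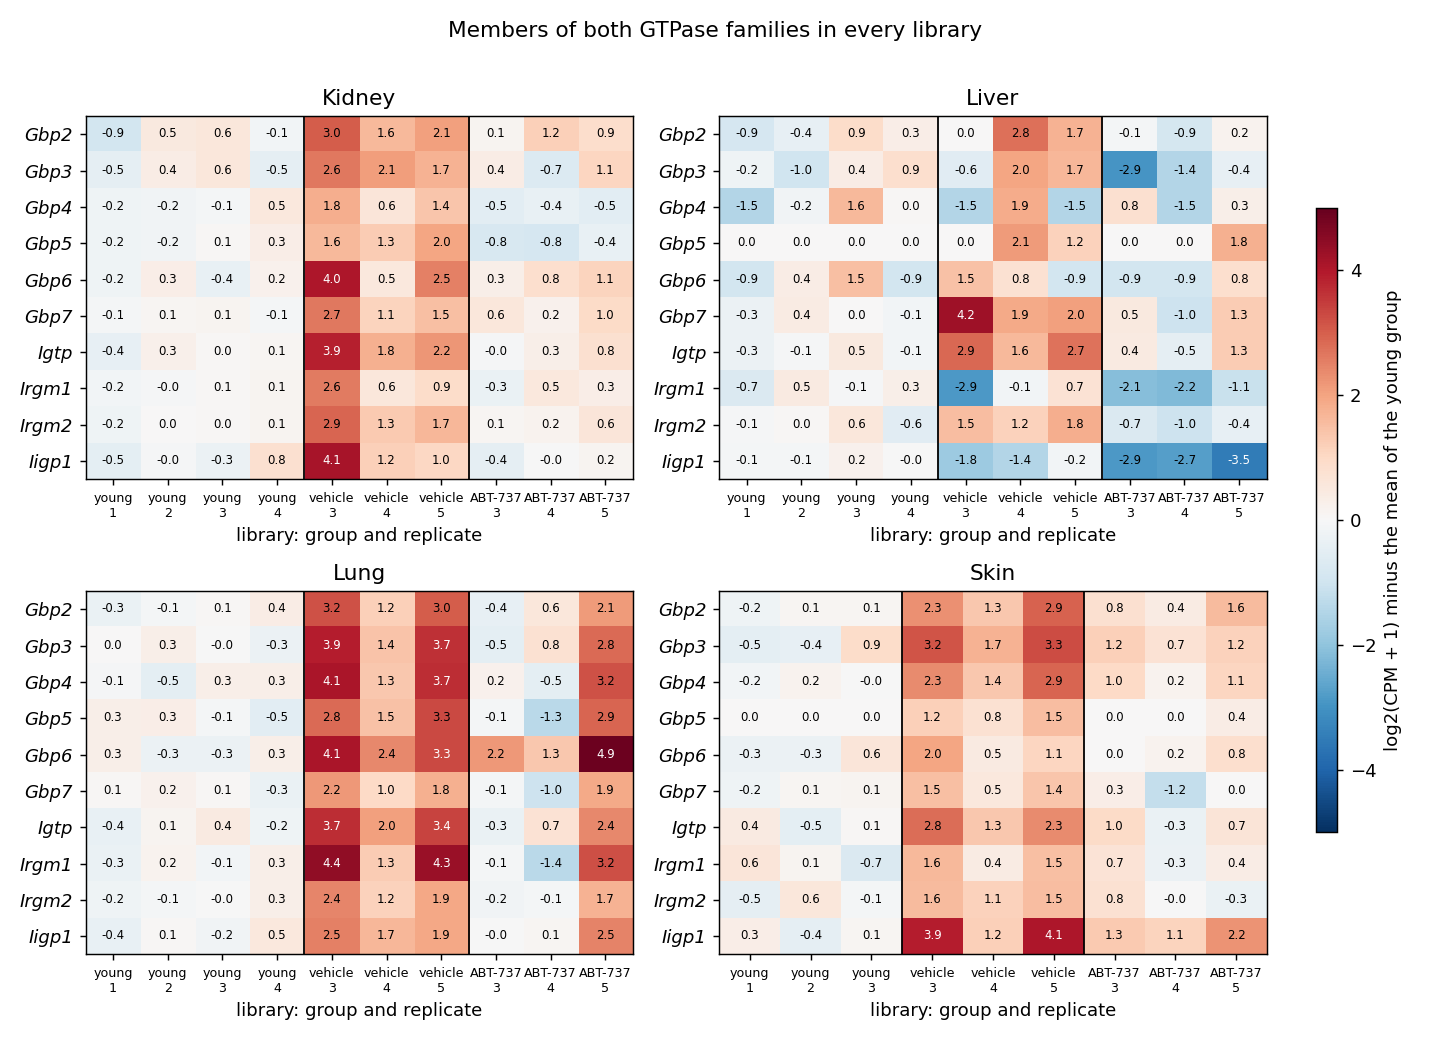
Level of each of the 10 genes in every library, as log2(CPM + 1) minus the mean of the young group of the tissue (columns, libraries by group and replicate; rows, genes; color scale on the right). Vehicle kidneys and vehicle lungs were above all young libraries for all 10 genes, and ABT-737 lung replicate 5 resembled the vehicle lungs.

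In kidney, old vehicle-treated mice exceeded young mice for all 10 members, with no overlap between the groups, whereas 14.8% of all genes tested were higher without overlap. Apart from Gbp5, all 8 members tested were called higher (7.75% of 11123 genes were), by 1.59 to 3.12 on the log2 scale. Gbp4 and Iigp1, at the ends of that range, reached the filter's cutoff in 1 young library each and needed their vehicle libraries to be tested. With at least 10 counts asked of every library, the 6 members left were called higher, by 1.69 to 2.94. Of all genes, 1056 of 9085 were then called in either direction. Here and in the other tissues, the vehicle libraries also enter the contrast behind the choice of members. The members' counts and p-values against young mice are therefore not independent of that choice. Iigp1, the effector of the vacuole attack, was at 2.99, 4.39, 3.49 and 8.72 CPM in young kidneys, 96, 11.6 and 10.3 CPM with vehicle, and 3.06, 4.43 and 5.16 CPM with ABT-737. A single vehicle kidney, replicate 3, carried most of its increase of 3.12 ± 0.63 (SE; edgeR adjusted p = 0.00362), and without that library the increase was 1.18 (adjusted p = 0.053).

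Igtp was at 24.3, 39.5, 33.8 and 34.9 CPM in young kidneys, 498, 114 and 152 CPM with vehicle and 31.7, 39.9 and 56.8 CPM with ABT-737. All 3 vehicle kidneys were above the other 7, and the increase over young was 2.94 ± 0.38 (adjusted p = 9.2e-05). For Gbp2, which acts on pathogen vacuoles, the young kidneys held 4.69, 14, 14.8 and 8.72 CPM, the vehicle kidneys 85.1, 32 and 43.9 CPM and the ABT-737 kidneys 10.7, 23.1 and 18.6 CPM. It rose by 2.31 ± 0.35 with age (adjusted p = 0.000366). The regulators Irgm2 (2.20 ± 0.30, adjusted p = 0.000122) and Irgm1 (1.69 ± 0.35, adjusted p = 0.00468) rose as well, as did Gbp3 (2.18 ± 0.33) and Gbp7 (1.97 ± 0.29), whose larger adjusted p was 0.000423. Without vehicle replicate 3 the rise of Irgm1 was 0.77 (adjusted p = 0.0226). Gbp6, which had too few counts to be tested, had 1, 4, 1 and 2 counts in young kidneys, 67, 2 and 18 with vehicle and 2, 4 and 5 with ABT-737.

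Between ABT-737 and vehicle, the contrast behind the choice, 8 of the 9 tested members were past the threshold and lower in kidney (1.21% of all genes were), and for 9 of 10 the groups did not overlap (8.47% of all genes were lower without overlap), Gbp6 being the exception. Gbp5, which has been implicated in inflammasome assembly, had 18, 8 and 20 counts in vehicle kidneys and 1, 1 and 2 counts with ABT-737, compared with 3, 5, 6 and 5 in young kidneys. The ratio of its summed levels, ABT-737 over vehicle, was 0.0906 (95% exact counting interval 0.0237 to 0.248). Thus its ABT-737 kidneys were the lowest of the 3 groups, also against young mice, where the ratio was 0.412 with an interval of 0.102 to 1.24 that includes no change. Counting intervals, here and below, pool the libraries of each group and leave out the spread between mice.

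The log2 change from vehicle to ABT-737 was -3.27 ± 0.75 for Iigp1, -2.59 ± 0.42 for Igtp, -2.21 ± 0.41 for Gbp4 and -1.89 ± 0.33 for Irgm2. It was -1.85 ± 0.37 for Gbp3, -1.64 ± 0.38 for Gbp2 and -1.35 ± 0.31 for Gbp7. For Irgm1, the member short of the threshold, it was -1.47 ± 0.39, and its ABT-737 kidneys still lay below every vehicle kidney. Without vehicle replicate 3, the highest vehicle kidney for 9 of 10 members, the count past the threshold was 5, and the changes of Gbp4 (-1.87), Igtp (-1.64), Gbp3 (-1.54) and Irgm2 (-1.22) were smaller. Leaving out ABT-737 replicate 4 brought the count to 3, leaving out ABT-737 replicate 3 brought it to 4, and leaving out young replicate 2, 3 or 4 to 5.

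Against young kidneys, none of the 9 members was called in ABT-737-treated kidneys by edgeR, where 2.12% of all genes were called in either direction. Of all 11123 genes, 1864 had an unadjusted p under 0.05, and of the 9 members 0 did. DESeq2 called 0 of them. Apart from Gbp5, given above as a ratio, the log2 differences ran from -0.62 ± 0.44 for Gbp4 to 0.67 ± 0.40 for Gbp2. In every tissue the ABT-737 libraries enter the contrast behind the choice as well. The ABT-737 group overlapped the young group for 7 members, lay above it for 1 (8.93% of all genes did) and below it for 2 (7.26%).

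In liver, 5 members had enough counts, and they fell into different patterns. Gbp7, which has been linked to the oxidative defense of phagocytes, was at 13.1, 21.6, 16.3 and 14.8 CPM in young livers, 325, 62.3 and 69.5 CPM with vehicle and 23, 7.33 and 40.8 CPM with ABT-737. Igtp was at 41.2, 49, 71.1 and 46.3 CPM in young livers, 380, 160 and 340 CPM with vehicle and 69, 36.7 and 125 CPM with ABT-737. For Irgm2 the values were 18.7, 20.2, 29.6 and 13 CPM in young livers, 59, 45.3 and 70.7 CPM with vehicle and 11.5, 9.17 and 14.4 CPM with ABT-737. In each of these 3 genes all vehicle livers were above all other livers, and 16% of all genes were higher with vehicle than in young livers without overlap.

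Compared with young livers, Gbp7 rose by 2.98 ± 0.57 (edgeR adjusted p = 0.00159), Igtp by 2.46 ± 0.36 (adjusted p = 0.000213) and Irgm2 by 1.48 ± 0.30 (adjusted p = 0.00237) with vehicle, and 11.7% of 5583 genes were called higher. Without vehicle replicate 3, the highest for Gbp7, its rise was 1.91 (adjusted p = 0.000664). Iigp1 went the other way. It was high in young livers, at 84.2, 86.4, 105 and 90.8 CPM, lower with vehicle, at 25.3, 32.8 and 81.9 CPM, and lowest with ABT-737, at 11.5, 12.8 and 7.2 CPM. All 3 ABT-737 livers were below all vehicle livers, and all vehicle livers below all young livers (16.9% of all genes were lower than young without overlap). The step from young to vehicle was -0.86 ± 0.31 and missed the threshold (adjusted p = 0.0569). It was called with DESeq2's size factors (-0.92, adjusted p = 0.0414), with no filter (-0.93, adjusted p = 0.0145) and without vehicle replicate 5 (-1.59, adjusted p = 0.0013). The difference between ABT-737 and young was -3.09 ± 0.43 (adjusted p = 0.000886), the single member called among 5.27% of genes called lower. Iigp1 was called lower against young livers with each library left out in turn (-3.33 to -2.87).

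Irgm1 was not called with age in liver. Its young livers held 22.5, 51.8, 35.6 and 46.3 CPM, its vehicle livers 4.22, 34 and 62.1 CPM and its ABT-737 livers 7.66, 7.33 and 16.8 CPM. Vehicle replicate 3 had 1 count for Irgm1 and stood apart from the other vehicle livers. The fitted age difference was -0.0015 ± 0.54, and without that library it was 0.22. Against young livers the log2 difference with ABT-737 was -1.86 ± 0.58 (edgeR adjusted p = 0.0583), and leaving out any 1 vehicle liver brought it past the threshold.

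From vehicle to ABT-737 the log2 change in liver was -2.54 ± 0.64 for Gbp7, -2.31 ± 0.39 for Irgm2, -2.22 ± 0.48 for Iigp1, -1.92 ± 0.40 for Igtp and -1.86 ± 0.60 for Irgm1. The first 4 of these were past the threshold (2.85% of all genes were, and lower), and 4 of all 10 members were lower without overlap (9.64% of all genes were), in a contrast the choice of members had used. With ABT-737 replicate 4 left out the count was 0, with ABT-737 replicate 3 left out it was 2, and with vehicle replicate 3 left out it was 6, which added Irgm1 (-2.08) and Gbp3 (-3.27). The members that were not tested had few counts: Gbp2 had 1, 30 and 13 in vehicle livers and 1, 1 and 2 with ABT-737, and Gbp3 had 1, 26 and 19 against 0, 1 and 2. Their ratios of summed levels, ABT-737 over vehicle, were 0.143 (95% exact counting interval 0.0374 to 0.393) and 0.103 (0.0204 to 0.319). Gbp4, Gbp5 and Gbp6 had at most 8 counts in any liver, too few for a difference to be detectable.

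**Figure D2:**
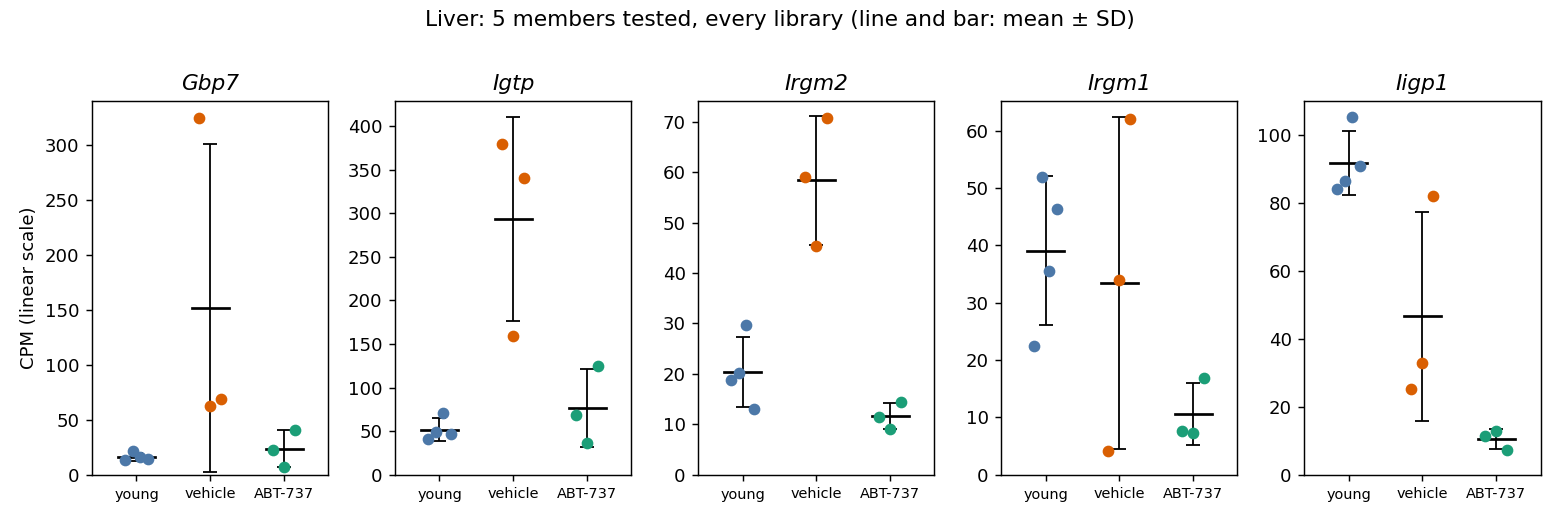
CPM (linear axis from 0) of the 5 members tested in liver, by group; points are livers, and lines with bars are the mean ± SD of 4 young, 3 vehicle and 3 ABT-737 livers. Gbp7, Igtp and Irgm2 were highest with vehicle, whereas Iigp1 fell from 84.2 to 105 CPM in young livers to 7.2 to 12.8 CPM with ABT-737.

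In lung, all 10 members were tested. Apart from Gbp6, all 9 were called higher in vehicle-treated than in young mice, where 8.15% of 11949 genes were called higher. For all 10 members the groups did not overlap (15.1% of all genes). As in kidney, these counts are not independent of the choice of members. Irgm1, a regulator, was at 7.31, 11.1, 8.63 and 11.9 CPM in young lungs, 229, 24.3 and 209 CPM with vehicle and 8.96, 3.14 and 97.3 CPM with ABT-737. It rose by 3.98 ± 0.87 (edgeR adjusted p = 0.0101). Gbp4 was at 8.77, 6.22, 11.3 and 11.4 CPM in young lungs, 170, 24.7 and 132 CPM with vehicle and 10.9, 6.28 and 92 CPM with ABT-737, and it rose by 3.50 ± 0.76 (adjusted p = 0.00999). Gbp6 had 1, 0, 0 and 1 counts in young lungs 30, 13 and 30 with vehicle and 7, 2 and 81 with ABT-737. Its ratio of summed levels, vehicle over young, was 40.7 (95% exact counting interval 10.9 to 342) and carries the shared 3′ windows named above. The smallest rises were those of Irgm2 (1.95 ± 0.43, adjusted p = 0.0109) and Gbp7 (1.72 ± 0.51, adjusted p = 0.0382). Leaving out young replicate 1, 2 or 3 or vehicle replicate 3 brought the count of called members from 9 to 6, as Gbp5, Gbp7 and Iigp1 missed the threshold.

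ABT-737 lungs split between mice. Replicates 3 and 4 were below every vehicle lung for all 10 members, and replicate 5 lay at or above the lowest vehicle lung for all 10. Igtp was at 40, 56, 70.6 and 44.4 CPM in young lungs, 668, 215 and 552 CPM with vehicle and 40.3, 85.8 and 280 CPM with ABT-737. For Gbp3 the young lungs held 20.5, 24.9, 19.4 and 16 CPM, the vehicle lungs 321, 55.4 and 264 CPM and the ABT-737 lungs 14.1, 34.5 and 150 CPM. The level in replicate 5 was 3.76 (Irgm2) to 16.1 times (Irgm1) the mean of the other 2 ABT-737 lungs. Vehicle replicate 4 was the lowest vehicle lung for all 10 members, and it was still above every young lung.

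With all libraries, edgeR called no gene, member or other, between ABT-737 and vehicle in lung (0% of 11949 genes), 1919 genes had an unadjusted p under 0.05, and DESeq2 called 335 of 12560 genes. The log2 change was -1.99 for Irgm1, -1.81 for Igtp and -1.65 for Gbp3, and Gbp6 alone was positive, at 0.36. In a fit with replicate number as a block, 0 members and 73 of 11519 genes were called, and Gbp6 was at -0.21. Pairing by number is not established, since some differently numbered lung libraries correlated as well. Without ABT-737 replicate 5, 9 members and 122 of 12124 genes were past the threshold, the members' changes ran from -4.58 for Irgm1 to -2.09 for Iigp1, and Gbp6 turned to -1.78. Against young lungs, the ratio of summed levels of Gbp6 with ABT-737 was 68.8 (95% exact counting interval 18.5 to 577). It rested on the 81 counts of replicate 5, and Gbp6 was past the threshold with all libraries but not without that library or without any 1 young lung. The other 9 members were not called by edgeR against young lungs (2.13% of all genes were called higher), and DESeq2 called 0. An unadjusted p under 0.05 was found for 7 of them and for 2448 of 11949 genes. Without ABT-737 replicate 4, Gbp4 (2.43), Gbp5 (2.31) and Iigp1 (1.72) were called. With all libraries the log2 differences of the 9 from young lungs included 0.79 for Gbp7, 1.75 for Gbp3 and 1.99 for Irgm1.

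In skin, 7 members were tested, and apart from Iigp1, 4 of 6 were called higher with vehicle than in young mice, where 5.84% of 14224 genes were. Over all 10 members, 8 lay above the young group without overlap, as did 19.5% of all genes. These counts too share the vehicle libraries with the choice of members. Iigp1 had 1, 0 and 1 counts in young skins, 45, 6 and 79 with vehicle and 9, 5 and 18 with ABT-737. Its ratio of summed levels, vehicle over young, was 39.7 (95% exact counting interval 10.8 to 331).

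Gbp3 was at 2.15, 2.28 and 7.21 CPM in young skins, 38.3, 13.7 and 41 CPM with vehicle and 8.99, 6.21 and 8.75 CPM with ABT-737, and rose by 2.91 ± 0.55 with age (adjusted p = 0.0171). Gbp2 was at 7.16, 9.11 and 9.02 CPM in young skins, 45.2, 22.9 and 71.4 CPM with vehicle and 15.2, 11.6 and 27.5 CPM with ABT-737, and rose by 2.45 ± 0.47 (adjusted p = 0.018). All vehicle skins were above all young skins for both genes, and vehicle replicate 4 was the lowest vehicle skin for all 10 members. Igtp (2.33 ± 0.47, adjusted p = 0.0201) and Irgm2 (1.45 ± 0.39, adjusted p = 0.0423) were called too, whereas Irgm1 (1.27, adjusted p = 0.0987) and Gbp7 (1.25, adjusted p = 0.0779) missed the threshold, and DESeq2 called Gbp7 (1.27, adjusted p = 0.0414). The count was 0 without young replicate 1 or 2 or without vehicle replicate 5, and 1 without young replicate 3.

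Between ABT-737 and vehicle in skin, edgeR called no gene, member or other (0% of 14224 genes), 1131 genes had an unadjusted p under 0.05, and DESeq2 called 58 of 15497 genes. Igtp was at 17.2, 8.54 and 13.1 CPM in young skins, 93.5, 33.1 and 67.6 CPM with vehicle and 25.2, 9.7 and 20.2 CPM with ABT-737, so its vehicle and ABT-737 skins did not overlap. Of the 10 members, 6 were lower without overlap (5.81% of all genes were), in the contrast behind the choice of members. The log2 change was -2.14 ± 0.75 for Iigp1, -1.94 ± 0.49 for Gbp3, -1.80 ± 0.44 for Igtp and between -1.41 and -1.01 for the other 4. Of the members not tested, Gbp4 had 1, 2 and 2 counts in young skins, 20, 11 and 49 with vehicle and 11, 3 and 10 with ABT-737, and its ratio of summed levels, vehicle over young, was 9.77 (95% exact counting interval 4.02 to 30.9). Gbp5 had no count in young skins and at most 7 in any vehicle skin, and Gbp6 at most 9. Apart from Iigp1, none of the 6 was called between ABT-737 and young skins by edgeR (5.18% of all genes were called in either direction), and DESeq2 called 0. An unadjusted p under 0.05 was found for 1 of the 6 and for 4271 of 14224 genes. Log2 differences of the 6 ran from -0.16 for Gbp7 to 1.09 for Gbp2.

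**Figure D3:**
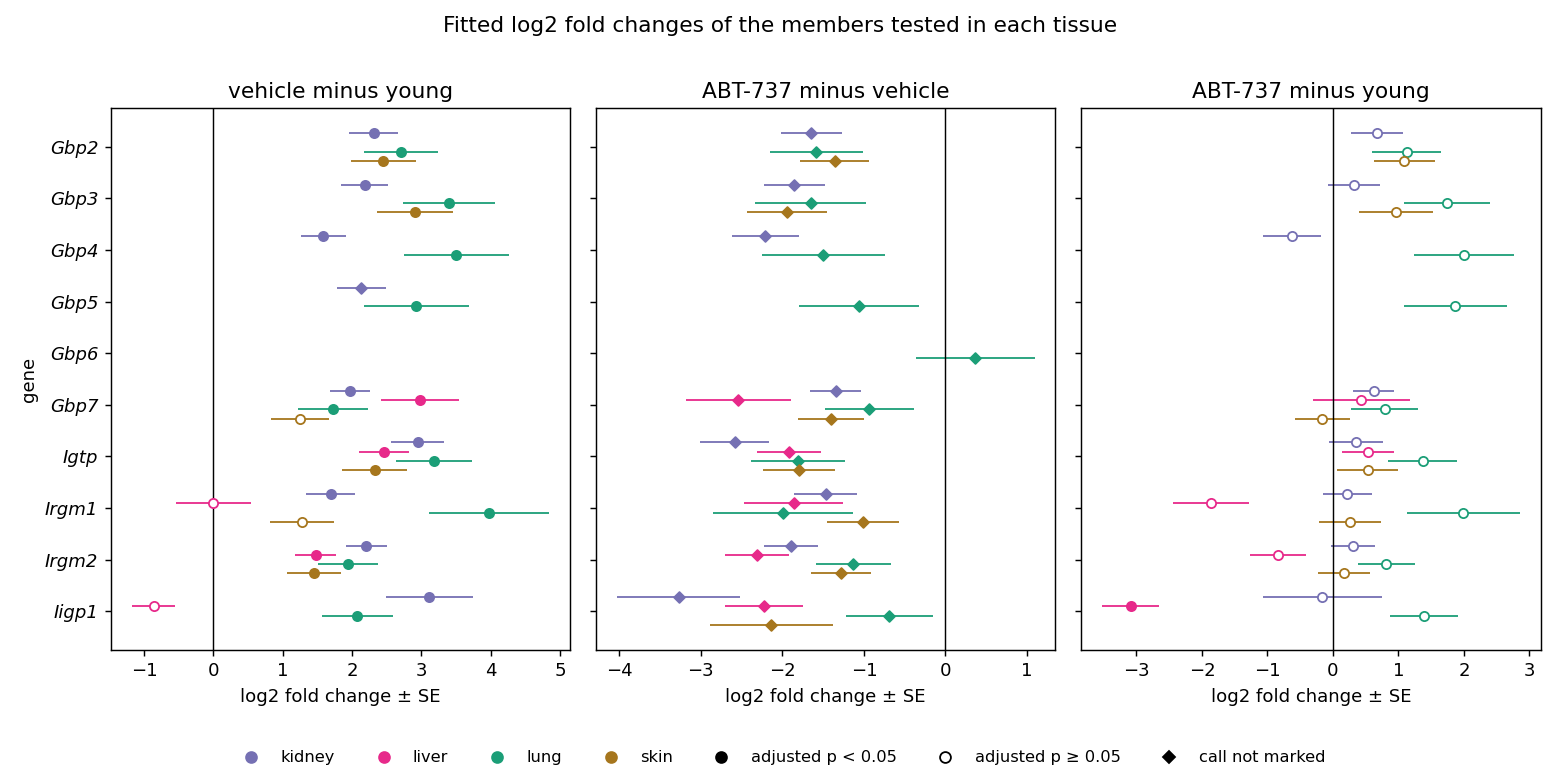
Fitted log2 fold change (point) ± SE (bar) of each tested member in 3 contrasts, colored by tissue; filled circles had an edgeR adjusted p under 0.05 over all genes of the tissue and open circles did not. Diamonds carry no call (ABT-737 minus vehicle, behind the choice of members, and members that passed the filter with no young library at its cutoff), and genes with a group at 3 counts or fewer in every library are left out. Vehicle minus young was positive for every member plotted apart from Irgm1 and Iigp1 in liver, and ABT-737 minus vehicle was negative for every one apart from Gbp6 in lung.

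Levels of the members were correlated across libraries. Over the 10 kidney libraries, the Pearson correlation of log2 CPM between pairs of members had a median of 0.88, and 0.63 once group means were removed. The corresponding medians were 0.93 and 0.87 over 10 lung libraries, 0.78 and 0.60 over 9 skin libraries, but 0.30 and 0.18 over 10 liver libraries, which were the shallowest. These values are descriptions, and members share libraries and, in part, their 3′ sequence. The genes most like the mean of the members in kidney included Cxcl10 (0.97), a chemokine induced by interferon gamma, B2m (0.97) and H2-K1 (0.96), both of antigen presentation, and Psmb8 (0.96), of the immunoproteasome. In lung they were Gm12185, Picalm, Hmgb2, Tgtp1 and Serp1, at 0.97 to 0.98, and in skin they included Gm12551 (0.96), Trem2, Flt4 and Stat2 (0.95). In liver they were Tgfb1 (0.94), Smad6, Rps6ka4, Coro1c and Cactin (0.90), none of which is in the interferon lists used here.

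Upstream of the members, Irf1 was called lower with ABT-737 than with vehicle in kidney (-1.60 ± 0.25, edgeR adjusted p = 0.00308) and in liver (-1.52 ± 0.39, adjusted p = 0.0403). From young to vehicle Irf1 rose by 2.22 in kidney, 1.91 in liver and 0.97 in skin (largest adjusted p 0.0401), and its difference in lung was 0.76 (adjusted p = 0.125). Ifng itself, the ligand gene, was counted well in lung alone, with 3, 2, 1 and 1 counts in young lungs, 30, 19 and 191 with vehicle and 1, 1 and 32 with ABT-737. Its ratio of summed levels there, vehicle over young, was 38.2 (95% exact counting interval 18.3 to 96.1). As with the members, the ABT-737 lung with the highest Ifng count was replicate 5.

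Of the 16 listed genes of interferon-gamma reception and signalling, 5 of 14 tested in skin rose with age, 8 of 16 in lung, 4 of 9 in liver and 11 of 15 in kidney. With ABT-737, 6 of 15 fell in kidney, among them Nlrc5 (-2.07) and Ciita (-1.91), the activators of MHC class I and class II genes, and 2 of 9 in liver. Of the other 16 listed targets of interferon gamma, 14 of 14 tested were called higher with age and 11 of 14 lower with ABT-737 in kidney, and 11 of 12 higher and 9 of 12 lower in liver. In lung 14 of 15 rose with age and in skin 3 of 13, and with ABT-737 0 were called in either. Their median log2 change from vehicle to ABT-737 was -1.78 in kidney and -1.92 in liver, against 0.01 and -0.03 over all genes tested. Where edgeR called 0 of these targets, 11 of 15 in lung and 7 of 13 in skin had an unadjusted p under 0.05, and DESeq2 called 5 and 0. Of all genes, 1919 of 11949 in lung and 1131 of 14224 in skin had such a p. Type I interferon targets rose with age in 11 of 14 tests in lung, 7 of 9 in skin, 10 of 11 in kidney and 2 of 3 in liver. With ABT-737 5 of them fell in kidney and 2 in liver, and edgeR called 0 in lung and in skin (8 in lung and 8 in skin at an unadjusted p under 0.05, 1 and 3 by DESeq2). All lists overlap in libraries with the members and were written with results of these data known.

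Further genes of the GTPase families were tested less often, because many had few counts. In kidney 4 of 5 rose with age, namely Tgtp1 (3.55 ± 0.70, edgeR adjusted p = 0.00303), Gm4951 (2.41), Ifi47 (2.07) and Gbp9, and Gm4951 fell with ABT-737 (-2.23 ± 0.45). In lung 5 of 10 rose with age, among them Gbp8 (4.17) and Tgtp2 (3.51). Lung Gbp2b had 1, 0, 1 and 0 counts in young mice and 11, 16 and 261 with vehicle, a ratio of summed levels of 161 (95% exact counting interval 44.1 to 1332). In skin Ifi47 rose, with 2, 3 and 3 counts in young mice and 34, 27 and 127 with vehicle (ratio 14.4, interval 7.14 to 33.7). In liver Ifi47 fell with ABT-737, with 2, 34 and 34 counts in vehicle livers and 3, 1 and 2 with ABT-737 (ratio 0.135, interval 0.0479 to 0.309). Liver Gbp11 was lower in old than in young mice, like Iigp1, with 20, 20, 12 and 18 counts in young livers, 0, 1 and 3 with vehicle and 1, 0 and 0 with ABT-737. Its ratio of summed levels to young livers was 0.0725 (interval 0.0192 to 0.194) with vehicle and 0.0285 (0.000712 to 0.164) with ABT-737, and edgeR called both (larger adjusted p 0.00245).

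A list of 16 genes with which the members act at vacuoles and in inflammasomes was counted as well. Neither edgeR nor DESeq2 called any of them between ABT-737 and vehicle. In edgeR 4 of 11 tested in kidney (1649 of all 11123 genes) and 2 of 14 in lung (1919 of 11949) had an unadjusted p under 0.05. In skin 2 of 12 had one (1131 of 14224 genes), and in liver 1 of 9 (900 of 5583 genes). From young to vehicle, Casp4 (1.90), Gsdmd (1.56) and Pycard (0.97) rose in kidney, and Aim2 (2.90), Pycard (2.57), Casp4 (2.41) and Trim21 rose in lung. Casp4 encodes the caspase of the noncanonical inflammasome, Gsdmd the pore former gasdermin D, Pycard the inflammasome adaptor, Aim2 a sensor of cytosolic DNA and Trim21 an antibody receptor of the cytosol. In liver the conjugation enzyme Atg3 (-1.18) and Gabarapl1 (-0.90), both of autophagy, fell with age and Gsdmd (0.76) rose, and in skin Rnf213 (1.88) rose.

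Markers of immune cells were counted beside the members. In kidney the summed level of 12 T and NK cell markers was 10.1 to 15.1 CPM in young mice, 68.7 to 110 CPM with vehicle and 18.7 to 40.8 CPM with ABT-737. Of those markers 5 were tested, and 5 rose with age and 3 fell with ABT-737. Of 9 tested myeloid markers in kidney, 9 rose and 5 fell. Vehicle kidney replicate 3, the highest for the members, had the lowest T and NK sum of the vehicle kidneys, 68.7 CPM. None of the 6 endothelial markers was called in kidney by either tool between ABT-737 and vehicle.

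In liver the T and NK sum was 3.71 to 7.41 CPM in young mice, 75.9 to 102 CPM with vehicle and 9.17 to 21.6 CPM with ABT-737, and 5 of the 12 markers (Cd3g, Cd8b1, Gzma, Klrd1 and Klrb1c) had no count in any young liver. All 7 tested myeloid markers rose with age and fell with ABT-737. In lung the T and NK sum was 80.1 to 115 CPM in young mice, 821, 578 and 2642 CPM with vehicle and 149, 223 and 527 CPM with ABT-737, so replicate 5 was the highest ABT-737 lung for these markers too. Its myeloid sum, 3330 CPM, was nevertheless below that of ABT-737 replicate 4, 3982 CPM, in which the members were low. In lung 8 of 10 tested T and NK markers and 7 of 10 myeloid markers rose with age, and edgeR called 0 between ABT-737 and vehicle (8 and 3 at an unadjusted p under 0.05, 3 and 0 by DESeq2).

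In skin the T and NK sum was 5.01 to 12.5 CPM in young mice, 31.8 to 86.2 CPM with vehicle and 7.76 to 26.9 CPM with ABT-737, and 10 of 10 myeloid markers and 2 of 3 tested T and NK markers rose with age, with 0 called by edgeR between ABT-737 and vehicle (10 and 2 at an unadjusted p under 0.05, 1 and 0 by DESeq2). B and plasma cell markers rose with age in 2 of 2 tests in kidney and 5 of 6 in lung, and endothelial markers in 1 of 2 in liver and 2 of 6 in skin. In lung the endothelial sum went the other way from the members. It was 1424 to 1752 CPM in young mice, 415 to 1253 CPM with vehicle and 1126 to 1567 CPM with ABT-737. With age, edgeR called 0 of the 6 markers there and DESeq2 called 1. An unadjusted p under 0.05 was found for 4 of the 6 and for 3556 of 11949 genes. The part of these cells in the members' levels was not tested. The markers of each labelled tissue were abundant in it, with summed levels of 43855 to 78024 CPM for hepatocyte genes in liver, 27865 to 60259 CPM for epithelial genes in lung, 10111 to 12387 CPM for tubule genes in kidney and 10451 to 35091 CPM for keratinocyte genes in skin.

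**Figure D4:**
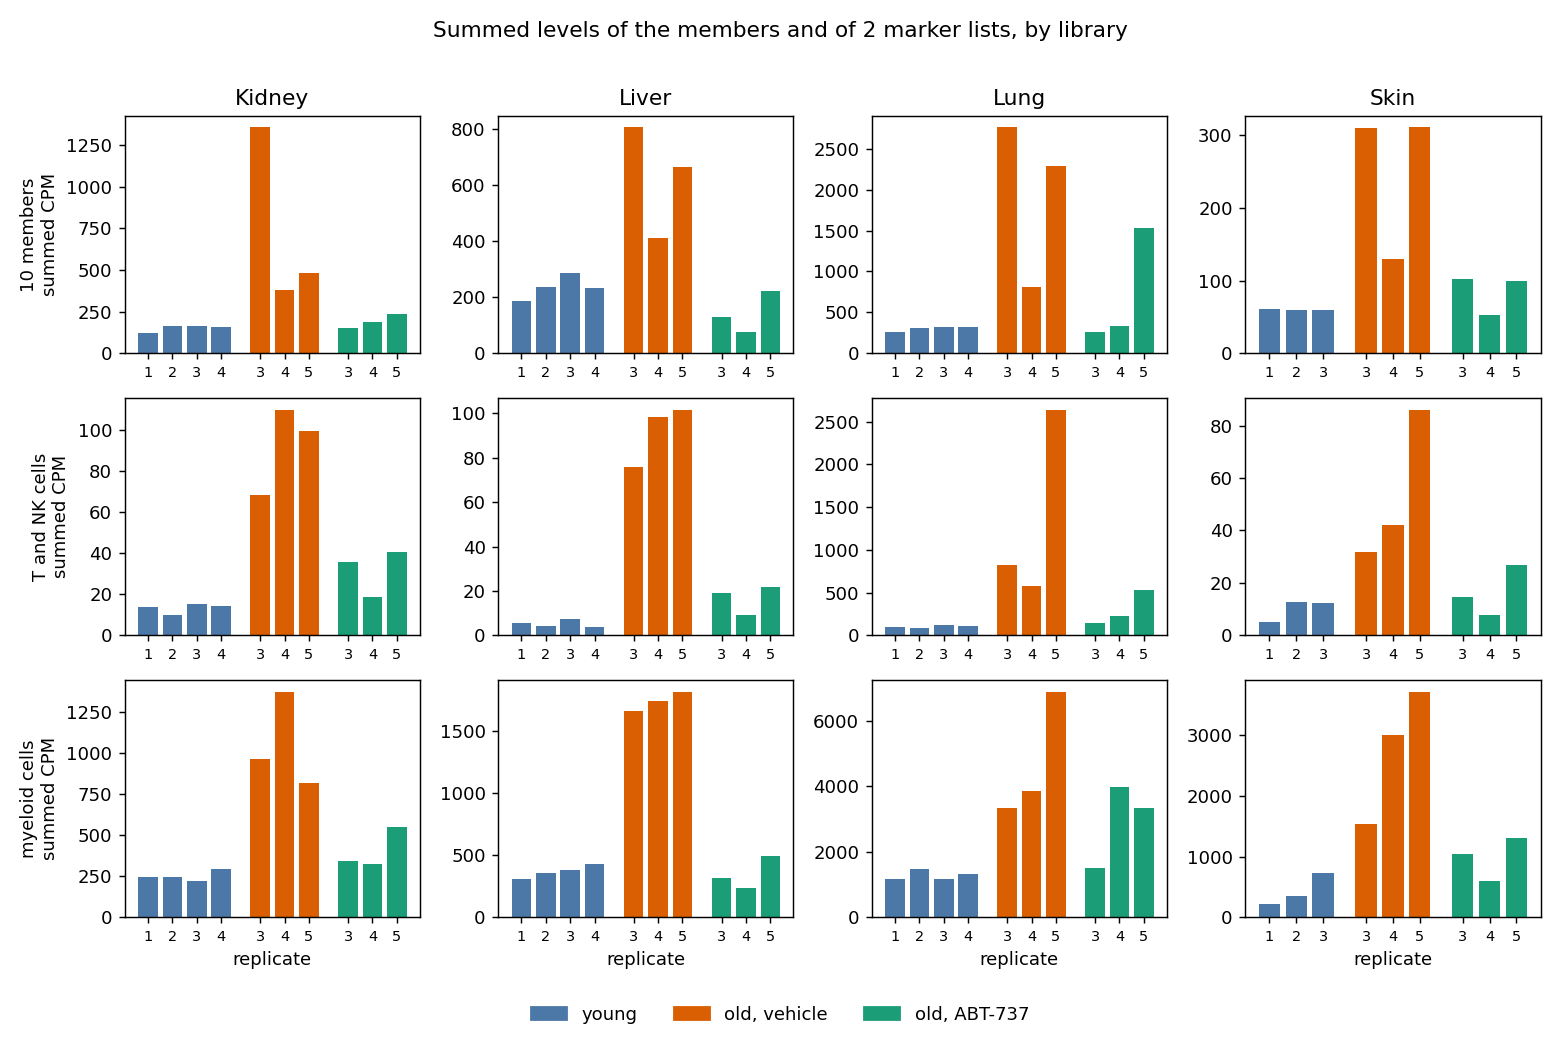
Summed CPM (linear axes from 0) of the 10 members, of 12 T and NK cell markers and of 10 myeloid markers in every library, by tissue and replicate, with bars colored by group. Vehicle libraries were highest for all 3 sums in kidney, liver and skin, and in lung the members' sum of ABT-737 replicate 5 (1531 CPM) exceeded that of vehicle replicate 4 (808 CPM).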

How the data were processed

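RNA from 4 tissues was sequenced in 39 libraries by a bulk derivation of MARS-seq, which reads the 3′ ends of pooled, barcoded transcripts. The authors deposited integer read counts per gene, not normalized, in 2 tables, a RefSeq-based one for kidney, liver and lung and a separate one for skin. The submitters' processing notes name bcl2fastq, HISAT 0.1.5, HOMER and mm10. Whether reads of 1 molecule were collapsed, and whether strand was used in counting, is not given in the sources used here, so intervals cover counting error only, and genes that overlap on opposite strands could share reads.

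Tests used edgeR 4.0.16 in R 4.3.3 (TMM scaling, edgeR's expression filter, which asks for about 10 counts in at least 3 libraries, and a quasi-likelihood fit of the 3 groups) in each tissue. Benjamini-Hochberg adjustment ran over all genes tested in the tissue, and genes under 0.05 were called. Groups in which every library had 3 counts or fewer were regarded as at the floor, and there a ratio of summed levels is given with its exact 95% interval. That interval pools the counts of each group's libraries and leaves out the spread between mice. The biological coefficient of variation was lowest in kidney (16.5%), then liver (23.5%), lung (31.7%) and skin (34.9%). The labels number the libraries of a group as replicates and say no more. The paper's legend gives at least 3 mice in each sequenced group, so each library is taken as a separate mouse. The p-values measure only the spread between these samples, part of which may be technical.

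The members and the gene lists were chosen with earlier results of these data known. All 10 members are named, with values in every library for the 3 with the largest log2 change per tissue in ABT-737 minus vehicle and in vehicle minus young. Of the other lists, called genes are named up to 3 by largest change, plus Irf1 and Ifng and genes among the 5 most correlated with the members' mean log2 CPM (prior count 2), and 1 gene of this rule is not reported here. Gbp9 in kidney and Trim21 in lung were added after their values were seen. Alternatives were DESeq2 1.42.0, its size factors, no filter beyond a summed count of 1, a minimum of 10 counts in every library, a fit of the 2 compared groups alone, the replicate number as a block, and each library left out in turn. Only in lung did all same-numbered vehicle and ABT-737 libraries correlate over 0.1 in their deviations from group means (0.18, 0.30 and 0.43). Differently numbered lung libraries also passed 0.1, at 0.30 (vehicle 4 with ABT-737 3) and 0.13 (vehicle 3 with ABT-737 5). The other lung pairs ran from -0.57 to -0.09, so pairing by number is not established. The method was tested on simulated counts.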

Additional observations from a re-analysis of the deposited data

Results flagged for a closer look

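Within the group of 4 young kidneys, Gbp4 in replicate 4 was at 6.43 CPM, far from the other 3, which lay between 3.41 and 3.78 CPM. The gap was 0.877 of the group's range, above Dixon's 95% limit for 4 samples. This was 1 of 29 groups examined, and chance gives about 1 in 20.

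Iigp1 moved in opposite directions in liver and in the other tissues, with every library of one group beyond every library of the other. From young to vehicle its log2 change was 3.12 in kidney, 2.08 in lung and 5.11 in skin, and -0.86 in liver. Between ABT-737 and young it was -3.09 in liver and 2.97 in skin. Both skin values are fitted against young skins with at most 1 count each, so their size depends on the fit. The differences between tissues were not tested, and these were 4 of 180 pairs of tissues compared.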

How the results depend on the processing

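Depth limits the liver most, where 5 of 10 members could be tested, and 3 mice a group limit every count of called members. For ABT-737 minus vehicle in kidney (8 called), at least 10 counts in every library gave 3, only the compared groups 4 and the replicate block 3, and leaving out 1 library gave 3 to 10. In liver (4 called) these gave 1, 1, 2 and 0 to 6, and no filter gave 7. These counts come from the contrast behind the choice of members and are descriptions. In lung (0 called) DESeq2 gave 1 (335 of 12560 genes) and leaving out 1 library 0 to 9, and in skin (0 called) DESeq2 gave 2 (58 of 15497 genes). For vehicle minus young, Gbp6 in lung and Iigp1 in skin are left out of these counts as well. At least 10 counts in every library gave 1 in liver (3 called, 6 with no filter), 6 in lung (9 called) and 2 in skin (4 called). Leaving out 1 library gave 3 to 4 in liver, 6 to 9 in lung and 0 to 5 in skin. For ABT-737 minus young in liver (1 called), DESeq2's size factors, no filter and only the compared groups each gave 2, at least 10 counts in every library 0, and leaving out 1 library 1 to 2. In lung, with Gbp6 left out (0 called), at least 10 counts in every library and only the compared groups gave 0, and leaving out 1 library 0 to 3. The cause of these shifts was not tested, but a stricter filter tests fewer members.

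Same-numbered libraries deviated together in neither kidney (-0.18, -0.21 and 0.02), liver (-0.04, 0.16 and -0.02) nor skin (-0.57, -0.58 and 0.28). They share only a number there, and the block gave 3, 2 and 0 called members. In lung, where pairing by number is not established either, the block left 0 members called and turned Gbp6 from 0.36 to -0.21.

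Some single log2 values changed sign when 1 library was left out. From vehicle to ABT-737 Gbp6 in lung ran from -1.78 to 0.85, and from young to vehicle Irgm1 in liver from -0.64 to 0.22. Between ABT-737 and young the ranges were -0.21 to 0.68 (Gbp3) and -0.33 to 0.18 (Iigp1) in kidney, and -0.36 to 0.99 (Gbp7) and -0.065 to 0.93 (Igtp) in liver. In lung they were -0.11 to 2.43 (Gbp4), -0.0053 to 1.77 (Iigp1), -0.16 to 1.13 (Irgm2), -0.50 to 1.20 (Gbp7), -0.66 to 2.31 (Gbp5) and -0.58 to 2.46 (Irgm1). In skin they were -0.10 to 0.60 (Irgm1), -0.49 to 0.18 (Gbp7) and -0.27 to 0.52 (Irgm2). In the fits that kept all libraries, 413 single values kept direction and side of the threshold, 13 newly passed it, 16 no longer did and 1 (Gbp6 in lung, above) changed sign.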
